A study of Mus musculus with 12 samples.

Results

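RNA polymerase II (RNAPII) phosphorylated at serine 2 of its C-terminal repeat (Ser2p) was compared with mRNA level, gene by gene, in mouse embryonic stem cells (mESCs). The comparison used 2 of the 12 samples of the series, 1 ChIP-seq library and 1 RNA-seq library, both from the E14 line (E14TG2a), which was grown with serum and LIF and received no treatment. Ser2p was pulled down with an anti-RNAPII Ser2p antibody (Abcam, ab5095), and its peaks were called on that single library. RNA-seq was strand-specific and started from total RNA. The lists for RNAPII phosphorylated at serine 5 (Ser5p), for Ctr9 and NELFA carrying a GFP tag, and for H3K27ac, each from 1 library of the same cell type, served only to show where Ser2p differed. Per the study, Ser5p was measured in the cells with tagged NELFA; the labels give E14 for it and name no tag.

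A protein-coding gene was called when at least 1 bp of a Ser2p peak met its body or the 5 kb downstream of its end. Its mRNA level was the TPM (transcript abundance per unit of length, scaled to the same total in each library) of its highest transcript. Of 21951 protein-coding genes in the annotation, 21918 (99.8%) had a level, and 16171 of these were above 0. Genes above 0 were divided into quartiles of TPM, from Q1 to the top quartile, Q4, and the 5747 genes listed at 0 formed a class of their own. With 1 library per assay there was no replicate and no test. Shares are given with 95% exact Clopper-Pearson intervals and medians with 95% order-statistic intervals over genes, and both cover counting error only.

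In the course of transcription, the C-terminal repeat of RNAPII is phosphorylated on serine 5 near the promoter and on serine 2, by kinases such as Cdk9, Cdk12 and Cdk13, as elongation proceeds. The serine 2 mark binds factors that cleave the nascent RNA at the poly(A) site, and RNAPII runs on past that site before it is released. Steady-state mRNA also depends on how fast the RNA is degraded, which ChIP-seq does not measure.

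The library labelled as mESC carried the marks of that cell type. The 28 pluripotency genes examined had a summed TPM of 9323, led by Dppa5a at 3190, and none was at 0. The 6 fibroblast markers summed to 8.41 TPM, with Thy1 the highest at 5.69 and 2 at 0. Primitive endoderm markers summed to 9.45 (Sox7 the highest at 6.04, none at 0) and mesoderm markers to 2.48 (Eomes the highest at 1.38, none at 0). Neural markers summed to 35.4, of which Tubb3 gave 31.4, and 1 was at 0. None of the 6 genes in any of these 4 lists had a Ser2p peak. Such peaks were rare at low levels in general, at 0.800% of genes listed at 0 and 5.29% of genes in Q2, beside 6.76% of all protein-coding genes. In bulk RNA, fewer cells of a type and less RNA per cell cannot be told apart.

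The Ser2p list had 1675 peaks, which were 429 bp wide at the median (200 to 5177 bp) and covered 1129 kb in all. The median fold enrichment at the summit, the base with the most fragments, was 4.79 over the local background, and the highest was 27.6. Of the peaks, 80.4% had a −log10 q of 5 or more. By comparison, 4490 peaks were listed for Ser5p and 44748 for Ctr9. The peak lists come without read counts, and the study's methods state a depth aimed for but not the one reached, so the depth behind the peaks is unknown, and a gene without a peak is one at which no peak was called at this depth. The RNA-seq library had 26400407 estimated counts.

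Genes with higher mRNA levels more often had a Ser2p peak. Of all protein-coding genes tested, 1482 were called, a share of 6.76%, and 846 of these (57.1%) lay in the top quartile. In the top quartile, with TPM from 21.7 upwards and a median of 48.0, 20.9% of 4042 genes were called (95% interval, 19.7% to 22.2%), and 9.55% (8.66% to 10.5%) when only the gene body was counted. The share was 7.37% in Q3 (6.58% to 8.22%), 5.29% in Q2 (4.62% to 6.03%) and 1.93% in Q1 (1.53% to 2.40%). Among genes listed at 0 it was 0.800% (46 genes, 0.587% to 1.07%). The intervals of neighbouring classes did not overlap.

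The share went on rising within the top quartile. When all genes above 0 were divided into 20 groups of equal size by TPM, the highest group, with a median TPM of 206, had 336 of 808 genes called (41.6%, 38.2% to 45.1%). The next group had 22.6% and the one after it 17.6%. Leaving out mitochondrially encoded genes, 58.8% of the 400 genes with a TPM of at least 200 were called, 82.0% of the 161 genes at 500 or more, and 92.1% (85.0% to 96.5%) of the 101 genes at 1000 or more. All 20 nuclear genes of highest TPM were called, as were 47 of the top 50 and 151 of the top 200. Even so, 3196 genes of the top quartile had no Ser2p peak.

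**Figure D1:**
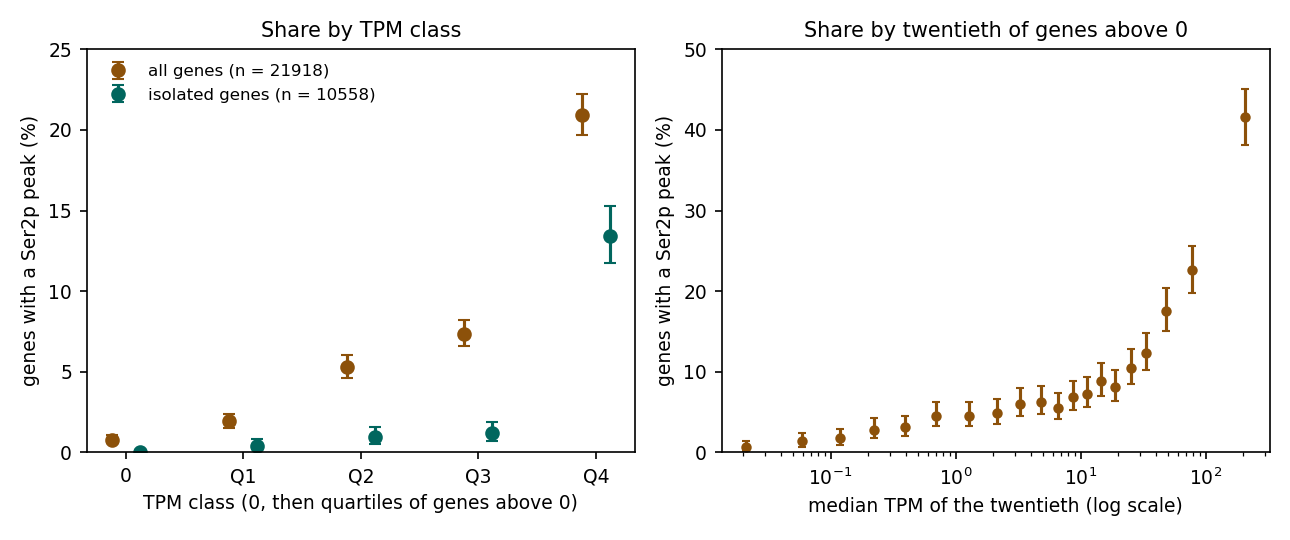
Share of protein-coding genes with a Ser2p peak (%) against mRNA level; bars are 95% exact Clopper-Pearson intervals. Left, by TPM class, for all genes and for isolated genes, from 0.800% at TPM 0 to 20.9% in Q4 for all genes; right, by twentieth of the genes above 0, plotted at the median TPM of each on a log scale, where the highest twentieth reaches 41.6%.

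Many calls at low genes rested on peaks that also met the region of a top-quartile gene. Which gene such a peak belongs to was not tested. Of the 46 called genes at TPM 0, 32 met a peak that also met another gene of the top quartile. The same held for 53 of 78 called genes in Q1, 115 of 214 in Q2 and 157 of 298 in Q3. In the top quartile itself it held for 257 of 846 called genes. When each summit was given only to the gene of highest TPM whose region held it, 919 genes (4.19%) kept a summit of their own, of which 726 were in the top quartile and 4 at TPM 0. The 5 genes at TPM 0 with the highest fold enrichment, Trpm5 (15.2), Ypel4 (13.8), Gm20532 (12.5), Gm49403 (10.4) and Fam166a (10.1), had no summit of their own. At Ypel4 the shared peaks covered 4858 bp, which was 50.6% of its body and 5 kb downstream.

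Genes whose region met no other protein-coding gene body or its 5 kb downstream showed the classes without neighbours. Of 10558 such isolated genes, 249 (2.36%) were called. In the top quartile 204 of 1517 were called (13.4%, 11.8% to 15.3%), against 1.22% in Q3, 0.964% in Q2, 0.425% in Q1 and 1 of 3704 genes at TPM 0 (0.0270%). That gene, Prss12, a serine protease gene named after its values were seen, had a single peak with a fold enrichment of 9.64. Among isolated genes the interval of Q2 overlapped with those of Q1 and Q3, that of TPM 0 lay below the others, and that of the top quartile lay above all of them.

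The stretch covered by Ser2p peaks was short against the gene. Called genes of the top quartile had a median of 702.5 bp covered (638 to 760), with the middle of the distribution between 349.5 and 1610 bp. This was a median of 3.99% of the body and 5 kb downstream, and 510 of the 846 genes had a single peak. Across these genes, TPM and the bp covered had a Spearman correlation of 0.342 (n = 846 genes, all read from the same 2 libraries), and of 0.236 over the 768 genes left without ribosomal protein and histone genes. TPM correlated with the share of the region covered at 0.434 and with fold enrichment at 0.212. These coefficients are descriptions across genes, which are not independent replicates.

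**Figure D2:**
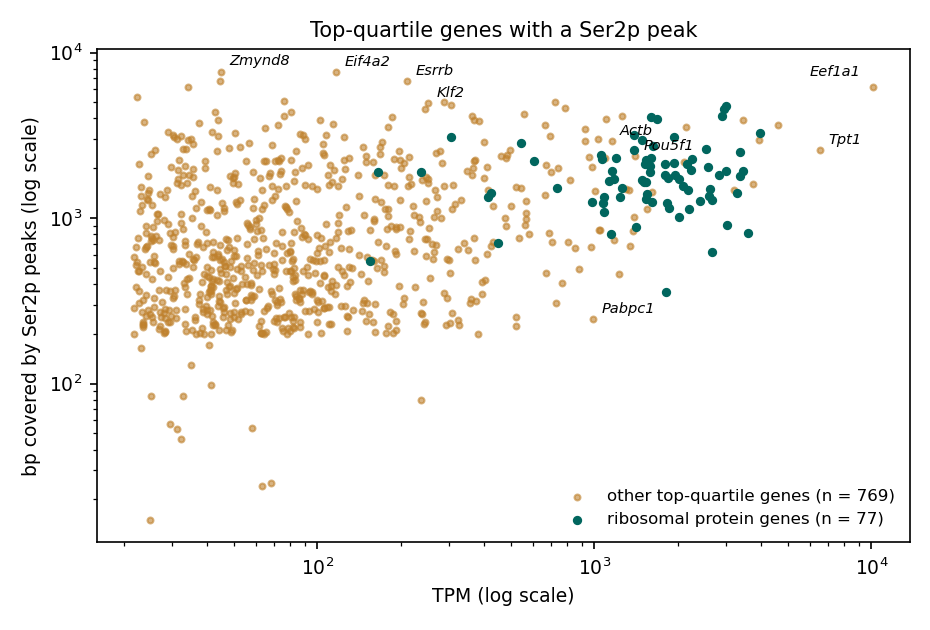
TPM (log scale) against bp covered by Ser2p peaks over the body and 5 kb downstream (log scale), 1 point per called gene of the top quartile, with 77 ribosomal protein genes marked. Ribosomal protein genes sit at high TPM with a median of 1796 bp, Zmynd8 has the most bp (7668) at a TPM of 44.9, and Pabpc1 has only 245 bp at a TPM of 993.

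The 5 top-quartile genes with the most bp covered differed in how the peaks were laid out. Zmynd8, which encodes a chromatin reader, had 7668 bp in 3 peaks at a TPM of 44.9, and its strongest summit (fold enrichment 14.5) lay inside the body, 39493 bp before the gene end. Eif4a2, an RNA helicase of translation initiation, had 7601 bp covered at a TPM of 117, which was 65.0% of its region. Rfc4, a subunit of the clamp loader of DNA replication that overlaps the end of Eif4a2 on the other strand, had 6698 bp and no summit of its own. Esrrb, a nuclear receptor of the pluripotency network, had 6693 bp spread over 15 peaks, the most of any top-quartile gene, across a body of 160.5 kb. Eef1a1, which encodes the elongation factor that brings aminoacyl-tRNA to the ribosome, had the highest TPM of all nuclear genes (10124) and 6224 bp in 4 peaks. The genes with most bp thus ranged from 44.6 to 10124 in TPM.

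The highest fold enrichments also lay at genes of very different mRNA level. The strongest peak (27.6) was at chr7:3218629-3223607 on mm10, and the only protein-coding gene whose region held its summit was Nlrp12, an innate immune gene at a TPM of 0.0366. This peak spans the Mir290 cluster, whose microRNA genes are listed at TPM 0 in a table made from transcripts of total RNA. The cluster encodes the main microRNA family of mESCs. The mature 3p sequences that lie inside the peak are shown because they identify the locus, from RefSeq on GRCm38.p6, plus strand, 5′ to 3′, with the seed (bases 2 to 8) in capitals; the first starts at chr7:3218674-3218697 and the last ends at chr7:3220815-3220837.
mmu-miR-290a-3p: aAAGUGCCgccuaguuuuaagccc
mmu-miR-291a-3p: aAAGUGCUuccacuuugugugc
mmu-miR-291b-3p: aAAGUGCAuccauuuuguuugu
mmu-miR-293-3p: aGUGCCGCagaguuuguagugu
mmu-miR-294-3p: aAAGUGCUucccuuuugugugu
mmu-miR-295-3p: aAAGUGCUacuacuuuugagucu
Mir292 also lies in the peak. The seed AAGUGCU was shared by 3 of them (miR-291a-3p, miR-294-3p and miR-295-3p).

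The next strongest peaks were at abundant mRNAs and their neighbours. Rpl3, a ribosomal protein gene at a TPM of 1607, had a peak at chr15:80075188-80077396 with a fold enrichment of 23.4 and its summit 1366 bp past the gene end. The peak at chr3:137867082-137867800 (21.7) had its summit 618 bp past the end of H2afz, the gene for histone variant H2A.Z (TPM 804), and also met the start of Dnajb14 (TPM 5.22), a co-chaperone gene. The peak at chr7:45455938-45457983 (21.1) was shared by Bax, Ftl1 and Gys1. By TPM its summit went to Bax (159), a gene of apoptosis, although it lay 4443 bp past the end of that gene. Ftl1, the ferritin light chain gene, was at a TPM of 4.35, a level that is uncertain because a copy, Ftl1-ps1, was listed at 2335. Rpl41, at a TPM of 3582, had a fold enrichment of 20.9 with its summit 302 bp past the end.

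Within the body and 5 kb downstream, most Ser2p summits lay past the end of the gene. Of 1675 summits, 1501 (89.6%) fell in the body or 5 kb downstream of a protein-coding gene, and 658 of them in the regions of more than 1 gene. Each was given to the gene of highest TPM. In this way 1229 summits (81.9%) went to top-quartile genes. For summits in several regions this rule itself favours the top quartile, and the shares by class below are given under this rule only. Of the 1501 summits, 957 (63.8%, 61.3% to 66.2%) lay past the gene end, at a median of 1241 bp (1151 to 1309), and the first kb after the end held 387 (25.8%). With only 1 kb downstream in the region, the share past the end was 36.0% (33.2% to 38.8%), no longer most of the summits. The first kb of the body held 5.60%. The share past the end was 69.3% for summits of top-quartile genes (66.7% to 71.9%), 48.1% in Q3, 31.4% in Q2 and 1 of 24 in Q1, and the intervals of the top quartile and Q3 did not overlap.

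The share past the end also varied with the length of the gene. Among summits of top-quartile genes it was 76.9% for genes under 5 kb, 385 of 550 from 5 to 20 kb, 73.5% from 20 to 50 kb, and 47.9% (39.98% to 55.8%) for genes of 50 kb or more. The intervals of the first 3 length groups overlapped, and that of the longest genes lay below them. The region added the same 5 kb to every gene, so a smaller part of it lay past the end of longer genes. How much this set the shares was not tested. Where the end falls depends on the annotation: measured from the end of the transcript of highest TPM, 69.8% of summits were past it.

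The 2 comparison lists had other profiles at top-quartile genes. For Ser5p, 31.8% of summits were in the first kb of the body and 12.6% in the first kb past the end, whereas Ser2p had 4.15% and 27.9%. For Ctr9, 19.5% were in the last quintile of the body and 6.49% in the first kb past the end, whereas Ser2p had 11.6% and 27.9%. Over all classes, 27.7% of Ser5p summits and 28.7% of Ctr9 summits lay past the end. When each list was reduced to its 1675 peaks of highest −log10 q, the Ser5p share was 31.8% and the Ctr9 share 68.2% (65.8% to 70.6%), so with equal numbers of peaks only the Ser5p share was clear of that of Ser2p.

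**Figure D3:**
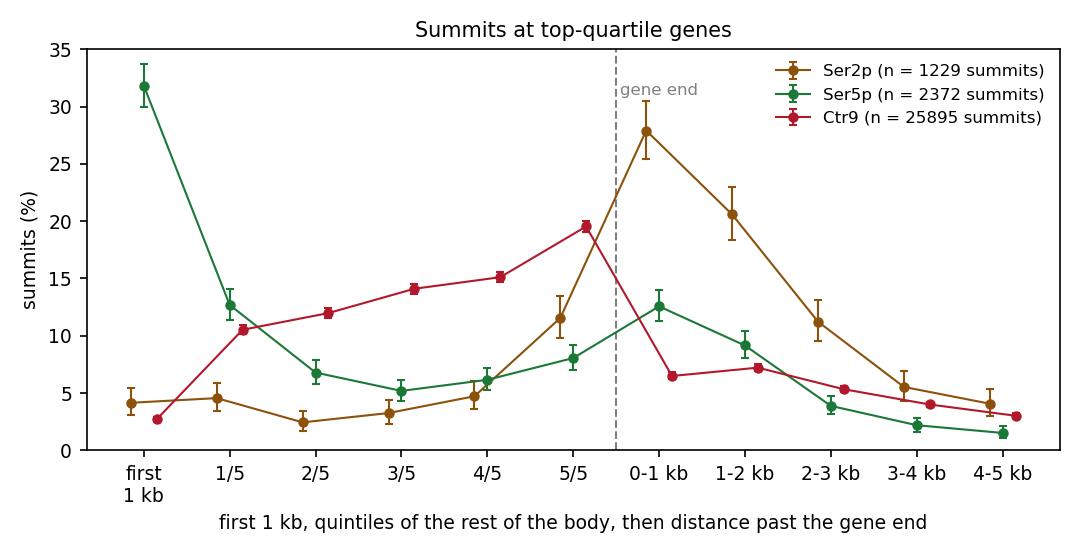
Percent of summits of each list at top-quartile genes by position: the first 1 kb of the body, quintiles of the rest, then 1 kb steps past the gene end (dashed line); bars are 95% exact intervals. Ser2p is highest in the first kb past the end (27.9%), Ser5p in the first kb of the body (31.8%) and Ctr9 in the last quintile of the body (19.5%).

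The annotated gene end was read for the poly(A) signal, the hexamer that directs cleavage of the RNA. AATAAA stood within the last 40 bases on the sense strand in 57.1% of all protein-coding genes, in 62.9% of called top-quartile genes (59.5% to 66.1%) and in 63.4% of uncalled ones (61.7% to 65.0%). The shares of called and uncalled genes of the same class had overlapping intervals, and the share was 49.7% at genes listed at TPM 0. ATTAAA, the next most common form, was in 15.2% of all genes. The hexamers and the bases after them are shown for genes whose strongest summit lay past the end, so that the site can be set beside the distance of the summit. Each run is from GRCm38 (mm10), in the sense direction, 5′ to 3′, with the hexamer in capitals.
Eef1a1 (chr9:78478449-78478475, minus strand): ATTAAAacaagtttaatgagaaatctg
Rpl41 (chr10:128548118-128548147, minus strand): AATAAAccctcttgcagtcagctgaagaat
Rpl3 (chr15:80077791-80077812, minus strand): AATAAAatatttctactcacac
Actb (chr5:142903117-142903146, minus strand): AATAAAagtgcacaccttaccttacacaaa
Nanog (chr6:122714610-122714633, plus strand): AATAAAacactaattttaccttta
Pabpc1 (chr15:36595661-36595681, minus strand): AATAAAaattccttaaacagt
The summit of the strongest peak lay 1471 bp past the end of Eef1a1, 648 bp past Actb, 857 bp past Nanog and 3331 bp past Pabpc1. A match of these letters is a description of the sequence and not evidence of use.

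Called genes of the top quartile were shorter than uncalled ones. Their median length from start to end was 11.7 kb (10.7 to 12.7), against 22.9 kb (21.8 to 23.8) for uncalled genes, a ratio of 0.511. Summed exon length differed less, at 3.66 kb (3.47 to 3.98) against 4.12 kb (3.98 to 4.23), a ratio of 0.889. By quintiles of gene length, from shortest to longest, 36.3%, 25.6%, 17.8%, 14.4% and 10.5% of top-quartile genes were called. Length and TPM were themselves related among these genes, with a Spearman correlation of −0.249 over 4042 genes.

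Both TPM and length were then divided into quintiles at once. In the highest quintile of TPM, 55.1% of the shortest genes (173 of 314, 49.4% to 60.7%) and 19.2% of the longest (10 of 52, 9.63% to 32.5%) were called. In the lowest quintile of TPM, the shares were 15.6% of the shortest (9.64% to 23.2%) and 5.78% of the longest (3.11% to 9.68%). Without ribosomal protein, histone and mitochondrially encoded genes, which are mostly short, 30.8% of the shortest quintile were called. The bp covered went the same way, with a Spearman correlation of −0.210 between gene length and bp among the 846 called genes.

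**Figure D4:**
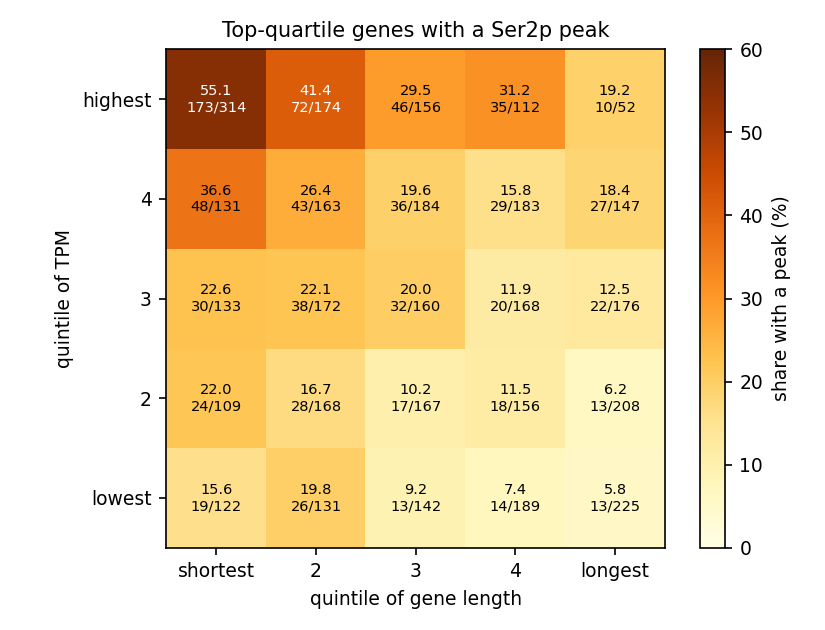
Share of top-quartile genes with a Ser2p peak (%, colour and upper number), with called genes over all genes below it, by quintile of TPM (vertical) and quintile of gene length (horizontal). The share is 55.1% for the highest TPM and shortest genes and 5.78% for the lowest TPM and longest genes.

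The extremes of length show both ends of this range. The 5 longest top-quartile genes without a call were Exoc4 (725 kb), Enox1 (565 kb), Ptprk (523 kb), Zmat4 (521 kb) and Dock1 (503 kb), with TPM between 22.0 and 53.8. Exoc4 encodes a subunit of the exocyst and Ptprk a receptor tyrosine phosphatase. The 5 shortest with a call were Hist1h2ad (0.572 kb), Gtsf1l (0.822 kb), Rpl36 (0.828 kb), Mrpl53 (0.900 kb) and Uqcc3 (0.910 kb). Of these, Gtsf1l and Uqcc3 had no summit of their own. At Gtsf1l, 3298 bp were covered.

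Nearly all cytosolic ribosomal protein genes of the list examined were called, mostly through peaks past the gene end. Of 79 cytosolic ribosomal protein genes, all in the top quartile and with TPM from 155 to 3972, 77 were called (97.5%, 91.2% to 99.7%), against 20.9% of the top quartile as a whole. Their median TPM was 1615, and of all nuclear genes at a TPM of 1000 or more, which include many of them, 92.1% were called. Over the gene body only, 30 of the 79 were called, where the top quartile had 9.55%. Their median coverage was 1796 bp, and 71 of the 76 with a summit of their own had the strongest one past the end. Among all top-quartile genes with a summit of their own, 571 of 726 had the strongest one past the end. Rps24, at a TPM of 3972, had 3281 bp in 4 peaks, and Rpl34, the lowest at 155, had 550 bp in 1 peak. Rpl22 (TPM 1765) and Rps13 (TPM 872) were the 2 without a peak, and both had Ser5p and Ctr9 peaks. All 13 mitochondrially encoded genes, which are transcribed by a polymerase of their own, were without a peak, and the Ser2p list held none on that chromosome.

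Proteasome and respiratory chain genes were in the top quartile and nearly all without a Ser2p peak. Of 31 proteasome subunit genes, with TPM from 50.9 to 246 and a median of 146, none was called (0%, which allows a share of up to 11.2%), beside 20.9% of the top quartile, 6.76% of all genes and 40.8% of nuclear genes at a TPM of 100 or more. The last group has no upper limit of TPM, and 82.0% of nuclear genes at 500 or more were called. In the twentieth of genes with TPM from 60.3 up to 113.3, the share was 22.6%. A Ctr9 peak was present at 29 of the proteasome genes and a Ser5p peak at 1. Among all top-quartile genes without a Ser2p peak, 89.4% had a Ctr9 peak and 23.2% a Ser5p peak. Of 47 nuclear-encoded respiratory chain genes, at a median TPM of 131.3, 3 were called (6.38%, 1.34% to 17.5%), namely the ATP synthase subunits Atp5b (TPM 1179) and Atp5a1 (TPM 566), with summits 760 and 859 bp past the end, and Ndufb10, which had no summit of its own. Cox4i1 (TPM 690) and Cox6c (TPM 636), subunits of cytochrome oxidase, were not called. A Ctr9 peak was present at 44 of the 47. In the top quartile, all called genes and 89.4% of uncalled ones had one. The levels of proteasome and respiratory chain genes overlapped with those of called genes in other groups.

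Genes that process RNA and make or fold protein were called in part. The shares lay above the 20.9% of the top quartile, but the genes also lay above its median TPM of 48.0, and of all nuclear genes at a TPM of 100 or more 40.8% were called. Of 31 genes for SR proteins, hnRNPs and other abundant nuclear RNA-binding proteins, at a median TPM of 197, 22 were called (71.0%, 52.0% to 85.8%). This interval lay above 40.8% but included the 58.8% of nuclear genes at a TPM of 200 or more. Of the 22 called, 21 had their strongest summit past the end, beside 571 of 726 top-quartile genes with a summit of their own. Hnrnpa2b1 (TPM 557) had 4233 bp at a fold enrichment of 18.3, while Hnrnpd, at a TPM of 394, had no peak. Of 34 translation factor genes, at a median TPM of 190.2, 15 were called (44.1%, 27.2% to 62.1%), and of 27 chaperone genes, at a median TPM of 295, 13 were called (48.1%, 28.7% to 68.1%). The intervals of translation factor and chaperone genes both include the 40.8% of nuclear genes at a TPM of 100 or more. Hspa8, the constitutive Hsp70, had 5033 bp in 7 peaks at a TPM of 720, with its strongest summit 3229 bp before the gene end. Hsp90ab1 (TPM 3921) had 2959 bp with a summit 598 bp past the end, whereas Cct2, a subunit of the cytosolic chaperonin, was at a TPM of 575 without a peak.

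The 20 glycolysis entries came from 19 gene symbols, so they are not all different symbols. At a median TPM of 112, and with 15 in the top quartile, 10 of the 20 were called (interval of the share, 27.2% to 72.8%). The share was 20.9% in the top quartile, 6.76% in all genes and 40.8% in nuclear genes at a TPM of 100 or more. The interval includes the last of these. Gapdh (TPM 2110) had 2194 bp in 4 peaks and Pkm, the pyruvate kinase gene (TPM 1382), 839 bp in 1 peak at a fold enrichment of 12.8. The glucose transporter gene Slc2a3 had 9 peaks and 4158 bp at a TPM of 362, and Pgk1, at 712, had none. Of 22 cyclin, cell cycle kinase and replication genes, at a median TPM of 141, 5 were called (22.7%, 7.82% to 45.4%). The share was near the 20.9% of the top quartile, in which 19 of the 22 lay. It was below the 40.8% of nuclear genes at a TPM of 100 or more, which the interval includes. That group has no upper limit of TPM, while the highest member of the list was at 367. Cdk4 (TPM 367) had 2228 bp with a summit 35 bp past the end, and Pcna, the sliding clamp (TPM 322), had 648 bp. Of the subunits of the replicative helicase, Mcm7 (TPM 174) had 1834 bp in 2 peaks, and Mcm6, Mcm3 and Mcm5, at TPM 256.3, 250.1 and 249.8, had none.

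**Figure D5:**
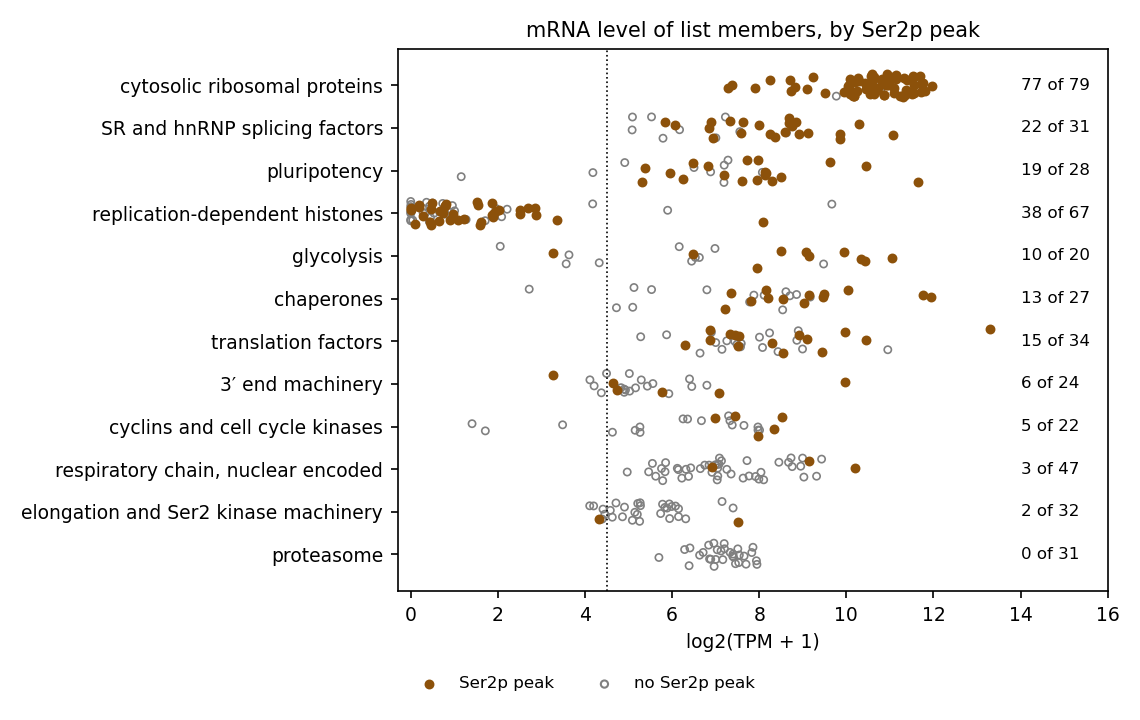
mRNA level as log2(TPM + 1) of each member of 12 gene lists, 1 point per gene, filled where the gene had a Ser2p peak, with the number called of all members at the right; the dotted line is the lower bound of the top quartile. Ribosomal protein genes, at a median TPM of 1615, are filled in 77 of 79 cases and proteasome genes, at a median TPM of 146, in 0 of 31, and 38 of 67 replication-dependent histone genes are filled although most lie at low TPM.

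Pluripotency genes were mostly called, with the strongest summit of most called genes past the gene end, as in the top quartile as a whole. Of 28 genes, 26 of them in the top quartile, 19 had a peak (67.9%, 47.6% to 84.1%), beside 20.9% of the top quartile and 6.76% of all genes. The median TPM of the list was 150. The interval lay above the 40.8% of nuclear genes at a TPM of 100 or more and included the 58.8% at 200 or more. All 19 had a summit of their own, as did 726 of the 846 called top-quartile genes. In 16 of the 19 the strongest summit lay past the end, beside 571 of those 726 genes. Pou5f1, which encodes Oct4, had a TPM of 1402 and 2375 bp in 1 peak with a fold enrichment of 11.6 and its summit 3382 bp past the end. This peak was 3099 bp wide, so part of it lay outside the region, and its summit was given to Pou5f1 by the rule of highest TPM. Nanog (TPM 281) had 2148 bp, all past the end of the gene. Sox2 (TPM 364) had 2003 bp in 4 peaks. Klf2 (TPM 251), a Krüppel-like factor, had 4975 bp, which was 65.3% of its region. Zfp42, which encodes Rex1, had 5001 bp in 7 peaks at a TPM of 286, and Tdgf1, a co-receptor of Nodal, 4616 bp in 6 peaks at 784.

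The 9 pluripotency genes without a call included some at the same mRNA levels. Dnmt3l, a partner of the de novo DNA methyltransferases, was at a TPM of 268, Lin28a, which binds let-7 precursors, at 155, Tcl1 at 146, Nr0b1 at 145 and Dppa4 at 117. Klf4 was at 89.7, Nr5a2 at 29.1, Prdm14 at 17.1 and Dppa3 at 1.23. Klf4 and Nr0b1 had a Ser5p peak, and all of the 9 except Dppa3 had a Ctr9 peak. Over all top-quartile genes without a Ser2p peak, 23.2% had a Ser5p peak and 89.4% a Ctr9 peak. Tbx3, at a TPM of 38.7, was called with 667 bp and a fold enrichment of 4.10, so the level alone did not order the calls within the list.

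Genes of the machinery that writes and reads the mark were examined next. Of 32 genes for elongation factors and serine 2 kinases, 26 of them in the top quartile and at a median TPM of 37.3, 2 were called (6.25%, 0.766% to 20.8%), Supt16 and Cdk13, beside 6.76% of all protein-coding genes and 20.9% of the top quartile. Supt16, a subunit of the histone chaperone FACT (TPM 181), had 222 bp and no summit of its own. Cdk13, a serine 2 kinase (TPM 19.2), had its summit in the body, 1501 bp from the gene start. Cdk9 (TPM 56.0), Supt5 of DSIF (TPM 69.9), the H3K36 methyltransferase Setd2 (TPM 37.5) and Ctr9 (TPM 29.0) had no Ser2p peak and had a Ctr9 peak.

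Of 24 genes for the machinery of the mRNA 3′ end, 6 were called (interval of the share, 9.77% to 46.7%), a share near the 20.9% of the top quartile, in which 19 of the 24 lay. Pabpc1, the cytoplasmic poly(A)-binding protein gene (TPM 993), had 1 peak of 245 bp with a fold enrichment of 5.33. Pabpn1, its nuclear counterpart (TPM 134), had 500 bp, the phosphatase gene Ssu72 (TPM 53.6) 399 bp, the termination factor gene Pcf11 (TPM 25.5) 886 bp and Wdr33 (TPM 23.8), which binds the poly(A) signal, 654 bp. Each of these 5 had its strongest summit past its end, and Scaf4 had no summit of its own. Xrn2, the exonuclease of termination, had a TPM of 110 and no peak. Beside these, Actb, the β-actin gene (TPM 1157), had 2907 bp in 2 peaks, and Zfp638 (TPM 40.6) had no Ser2p peak although it had Ser5p, Ctr9 and NELFA peaks.

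Replication-dependent histone genes were called at low TPM. Their mRNAs end in a stem-loop and carry no poly(A) tail. Of 67 genes, 38 were called (56.7%, beside 6.76% of all genes), 37 of them on chromosome 13, and only 3 of the 67 were in the top quartile. Called genes numbered 3 of 8 at TPM 0, 8 of 19 in Q1, 23 of 33 in Q2, 3 of 4 in Q3 and 1 of 3 in the top quartile, where the shares over all genes of these classes were 0.800%, 1.93%, 5.29%, 7.37% and 20.9%. The calls came from 33 peaks, since the genes lie close together, and 24 genes had a summit of their own. In 10 of these 24 genes the strongest summit lay past the end. The labels give total RNA and the study calls the assay mRNA sequencing, but the selection step is not given in the sources used here, and its part in the level of these mRNAs was not tested.

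The sequence at the ends of histone genes differed from that of the others. AATAAA was found in the last 40 bases of 6 of the 38 called histone genes (15.8%) and of 6 of the 29 uncalled (20.7%). The stem-loop was searched as GGCNCTTTTCAGAGCC within 100 bases on either side of the gene end. It was found in 24 protein-coding genes (0.109%), of which 13 were called histone genes and 11 uncalled histone genes, and nowhere on the opposite strand. Stem-loops are shown in capitals for 2 called genes, each from GRCm38, minus strand, in the sense direction.
Hist1h2bf (chr13:23573753-23573780): GGCTCTTTTCAGAGCCacctaccctttc
Hist1h3a (chr13:23761878-23761905): GGCTCTTTTCAGAGCCacacacgatttc
Hist1h2bf had a TPM of 2.90 and a fold enrichment of 8.13, with its strongest summit 1658 bp past the end. Hist1h3a had a TPM of 2.66 and a fold enrichment of 5.58, with its strongest summit 1164 bp past the end.

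Highly expressed genes without a Ser2p peak were then examined by name. With mitochondrial genes and the members of the histone and ribosomal protein lists set aside, the 10 of highest TPM were Ftl1-ps1 (2335), Eef2 (1979), Eno1b (1527), Gm2000 (1338), Gm11808 (1255), Rps12-ps3 (1191), Mif (1138), Rpl36al (736), Pgk1 (712) and Rps27l (702). Rpl36al, Rps27l and Rps12-ps3 are copies or relatives of ribosomal protein genes that the list of 79 does not hold. All 10 stayed without a peak when the region was extended to 10 kb downstream or by 1 kb upstream. Eef2, the translocation factor of translation, lay 22.7 kb from the nearest Ser2p peak. Ser5p peaks were present at Ftl1-ps1, Mif, Rpl36al and Rps27l, and Ctr9 peaks at all but Eef2, Gm11808 and Rps12-ps3.

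Several of these genes are near-identical copies of other genes, so their levels are uncertain. The share of the 31-base words of the highest transcript that also occur in transcripts of other genes was 100% for Rps12-ps3, 94.7% for Gm11808, 90.4% for Gm2000 and 88.7% for Eno1b. It was 87.4% for Mif, 68.3% for Pgk1, 64.7% for Rpl36al, 51.0% for Ftl1-ps1, 29.6% for Rps27l and 23.2% for Eef2. Eno1, the multi-exon gene that Eno1b resembles, was called at a TPM of 1299. Among nuclear genes at a TPM of 500 or more, over 50% of the words were shared in 15 of 29 uncalled genes (51.7%, 32.5% to 70.6%) and in 87 of 132 called ones (65.9%, 57.2% to 73.9%), and these intervals overlapped. Over the whole top quartile the shares were 7.95% of uncalled genes and 18.4% of called ones.

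Top-quartile genes with and without a Ser2p peak were also set against the other lists, over 1 kb upstream, the body and 5 kb downstream. A Ser5p peak was present at 85.5% of called genes (82.9% to 87.8%) and at 23.2% of uncalled ones (21.8% to 24.8%), against 12.8% of all protein-coding genes. For NELFA the shares were 53.9% and 22.7%, against 10.4% of all genes. A Ctr9 peak was present at all 846 called genes and at 89.4% of uncalled ones, against 44.1% of all genes. For H3K27ac the shares were 95.3% and 88.3%, against 43.1% of all genes. Most genes without a Ser2p peak in the top quartile therefore had a Ctr9 and an H3K27ac peak.

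Over the body and 5 kb downstream, the same region as for Ser2p, 33.8% of top-quartile genes had a Ser5p peak and 91.5% a Ctr9 peak, where all genes had 11.7% and 43.5%. With as many peaks as the Ser2p list, the highest by −log10 q, the shares were 18.6% for Ser5p (17.4% to 19.8%) and 29.7% for Ctr9 (28.3% to 31.1%), beside 20.9% for Ser2p (19.7% to 22.2%). The Ctr9 share stayed above that of Ser2p, and the intervals of Ser5p and Ser2p overlapped.

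No peak of any of the 5 lists was found at 159 top-quartile genes (4.97% of the 3196 uncalled), among them the mitochondrially encoded mt-Co1. The other 12 mitochondrially encoded genes were counted with an H3K27ac peak, as that list has 2 peaks on their chromosome. Over 50% of the 31-base words were shared with other genes in 55 of the 159 (34.6%, 27.2% to 42.5%), against 9.15% (8.26% to 10.1%) of top-quartile genes with a peak of at least 1 list. Genes with a single exon made up 10.1% of the 159 (5.86% to 15.8%) and 1.26% of the others (0.935% to 1.66%). Examples, chosen after their values were seen and not the highest by TPM, were the γ-actin gene Actg1 (TPM 599), the spliceosomal gene Snrpe (TPM 413) and Rrm2 (TPM 332), a subunit of ribonucleotide reductase. The share of words in other genes was 57.1% for Actg1, 41.2% for Snrpe and 16.5% for Rrm2. For Rrm2, the nearest Ser2p peak was 379 kb away.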

How the data were processed

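Per the submitters' processing notes and the study's methods, the authors mapped ChIP-seq reads by Bowtie2 2.3.5.1 (mm10), discarded those in blacklisted regions, and ran MACS2 2.2.6 on each library, keeping peaks with a q-value under 0.01. Each deposited list gives a score (10 times the −log10 q as a whole number), a fold enrichment ratio, and the −log10 p and −log10 q of the summit. The authors ran kallisto on GENCODE transcripts and deposited estimated counts and TPM for 137767 transcripts; TPM adds up to 1000000. The score, the estimated counts and the p-values were not used for calls.

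Gene coordinates came from a later GENCODE release on GRCm38, matched by gene ID, and sequences from GRCm38.p6. Overlaps, intervals and figures were computed with Python 3.11.15, pandas 2.3.3, NumPy 2.4.6, SciPy 1.17.1 and Matplotlib 3.10.9, and the code was tested on simulated data (11 of 11 checks passed). Summits inside several regions were given to the gene of highest TPM.

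The genes named are the 5 top-quartile genes with most bp, the 5 highest fold enrichments, the 10 of highest TPM without a peak (mitochondrial genes and members of the histone and ribosomal protein lists set aside), the 5 longest uncalled and 5 shortest called top-quartile genes, 5 called genes at TPM 0, the pluripotency, elongation and 3′ end lists, and 5 genes the study names or shows (Pabpc1, Pou5f1, Tbx3, Zfp638 and Actb); members of other lists serve as examples. Members and lists were chosen with earlier results of these data known. The alternatives tried changed the q threshold, the gene region, the overlap rule, the expression measure, the quartiles, the summary and the number of peaks; 23 further ones were chosen after seeing the data. The input libraries and NIH3T3 samples were not used here.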

Additional observations from a re-analysis of the deposited data

How the results depend on the processing

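Of 67 alternatives to the main shares, counts and medians, 45 stayed inside the interval of the main value (or within 1.5 times a count), and 22 did not. The share of top-quartile genes with a Ser2p peak became 18.5% at a −log10 q of at least 5, 9.55% over the body only, 25.3% with quartiles of genes at a TPM of at least 1, 13.4% for isolated genes, 19.5% without ribosomal protein, histone and mitochondrially encoded genes and 18.0% with each summit given to 1 gene. The share at TPM 0 became 0.539% over the body only, 0.0270% for isolated genes and 0.0696% with each summit given to 1 gene. Uncalled top-quartile genes numbered 2102 with quartiles of genes at a TPM of at least 1 and 1313 for isolated genes, since fewer genes were tested. The bp covered became 449 over the body only, 1143 as a mean and 625 without ribosomal protein, histone and mitochondrially encoded genes. The length ratio became 0.720 with means and 0.889 with summed exon length. The share of summits past the gene end became 68.0% with 10 kb downstream, 36.0% with 1 kb (no longer most summits), 67.1% counted in bases and 69.8% from the end of the highest transcript. With as many peaks as Ser2p, the top-quartile shares were 18.6% for Ser5p and 29.7% for Ctr9. A stricter q, the body only or 1 gene per summit can only lower the number of genes called. The cause of the other changes was not tested. Over the body only, 30 of the ribosomal protein genes were called, and with each summit given to 1 gene 24 of the histone genes. No proteasome gene was called with 10 kb downstream. The other settings tried for that list (stricter q, body only, 1 gene per summit) could only remove calls, so they say nothing further.

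Depth limits what an absent call means: the number of ChIP-seq reads behind the peaks is not given, each assay had 1 library, and a true difference between genes cannot be told apart from the reach of peak calling at this depth. Reads in blacklisted regions were discarded, and whether this removed peaks at uncalled genes was not tested. Levels of near-identical gene copies are uncertain, and the RNA selection step is not given in the sources used here. No paired analysis was possible because each assay had 1 library and no result comes from a test.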

Other observations

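Ser2p peaks were also called away from protein-coding genes. Of 1675 peaks, 163 (9.73%) met no body or 5 kb downstream of a protein-coding gene. Of these, 98 met the same region of at least 1 noncoding gene, and 65 met none. When each of the 98 peaks was given to the gene of highest TPM that it met, 51 noncoding genes received a peak. Of these 51 genes, 12 had a TPM of at least 21.7, the lower bound of the top quartile of protein-coding genes. The genes and peaks below were chosen after their values were seen, among those of high fold enrichment.

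The strongest of them (17.3) was at 1110038B12Rik, a noncoding gene at a TPM of 85.8. Lncenc1, a long noncoding RNA expressed in mESCs, had 9 peaks that covered 14962 bp, with a highest fold enrichment of 16.2 and a TPM of 138. The nuclear RNAs Neat1, the scaffold of paraspeckles, and Malat1 had 1 peak of 5177 bp (12.2) and 5 peaks (10.8), at TPM 42.7 and 24.5. The peak at Neat1 was the widest of the list. Zfas1 (13.7), Snhg1 (11.8) and Snhg5 (10.6), host genes of small nucleolar RNAs, were at TPM 94.8, 67.1 and 76.3. The pseudogene Gm11847 (11.1) was at 69.8. Other peaks lay at genes of low level, such as Gm26510 (9.46) at a TPM of 0.253 and AV205837 (7.18), listed at 0. Among peaks with no annotated gene, the strongest were at chr16:25522718-25526247 (15.4), 101518 bp from Tprg, and at chr6:124477019-124480152 (12.4).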
